A study of Mus musculus with 8 samples.

Results

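Hydroxymethylated DNA immunoprecipitation (hMeDIP-seq) of mouse lung listed 89177 peaks for F0-HDM_F1-HDM against F0-Saline_F1-HDM, here called the double HDM contrast. Of these, 14057 (15.8%) recurred in the maternal only contrast, F0-HDM_F1-Saline against F0-Saline_F1-Saline, and were absent from the adult only contrast, F0-Saline_F1-HDM against F0-Saline_F1-Saline. They were selected on position. A peak was taken when it shared at least 1 base with a peak of the maternal only list and none with a peak of the adult only list. The double HDM and maternal only contrasts set maternal house dust mite (HDM) against maternal saline, and they have no library in common, whereas the adult only contrast shares one library with each of them. The 3 hMeDIP-seq lists chose these peaks, so their scores there are given as a description and were not tested.

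Lung DNA came from C57BL/6J F1 males in 4 groups. F0-HDM_F1-HDM offspring had HDM through the dam and again as adults, F0-HDM_F1-Saline offspring through the dam only, F0-Saline_F1-HDM offspring as adults only, and F0-Saline_F1-Saline offspring had saline both times. Dams of the F0-HDM groups were sensitized with 100 μg of HDM before mating and were then dosed through the airway during pregnancy and lactation. Adult exposure began at 6 weeks of age, with challenges on d14, d18 and d21, and airway responsiveness was measured on d23, so all the DNA is from lungs that had been through that procedure. For each assay a group is 1 library, a pool of mice from 3 dams. Groups could therefore not be tested against each other, and whole lung holds many cell types whose shares were not measured. The lists give no reads, so the depth behind a peak is unknown, and they state neither which library is the sample and which the control nor whether 5hmC was gained or lost. The first-named library was taken as the sample from the names of the lists.

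5-hydroxymethylcytosine (5hmC) is made from 5-methylcytosine (5mC) by the TET dioxygenases, and it can be an intermediate of demethylation or a lasting mark. In differentiated tissue it is known to lie in the bodies of transcribed genes and at enhancers, and to be sparse at active CpG island promoters. HDM is an inhaled allergen that drives type 2 airway inflammation. hMeDIP-seq captures fragments that carry 5hmC and MeDIP-seq those that carry 5mC, so a peak is a stretch of bases and not a single cytosine.

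A selection of 10 shared peaks is shown here by the 201 bases around their centres, because they span the range from repeated sequence to exons. The sequence is the plus strand of GRCm38, the build of the lists, and each CpG, the usual site of both marks, is in capitals. The first ranked highest by the lower of its 2 maternal scores, and the second lay near Tmem125, a transmembrane protein gene. The third is a sequence with a median of 618 copies per window, and the fourth holds no CpG but was among the 8 shared peaks with the highest 5mC scores. The next 3 lie within 1 kb of a transcription start. The last 3 are exon peaks of Rora, a nuclear receptor needed for group 2 innate lymphoid cells, and of Mroh2a and Dnah8, which lie in dense blocks of shared peaks. The label exon means that the peak shares at least 1 base with an exon, and the window shown may run beyond it.
chr9 intergenic, chr9:123925421-123925621: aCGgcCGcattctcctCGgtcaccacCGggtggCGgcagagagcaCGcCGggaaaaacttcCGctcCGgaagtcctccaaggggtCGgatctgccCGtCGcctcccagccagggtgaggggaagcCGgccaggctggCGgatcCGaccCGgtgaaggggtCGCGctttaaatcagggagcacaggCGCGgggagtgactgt
chr4 near Tmem125, chr4:118548486-118548686: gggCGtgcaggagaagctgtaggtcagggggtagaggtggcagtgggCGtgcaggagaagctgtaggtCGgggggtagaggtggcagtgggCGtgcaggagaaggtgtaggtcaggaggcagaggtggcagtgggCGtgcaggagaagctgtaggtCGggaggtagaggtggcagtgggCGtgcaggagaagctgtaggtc
chr16 intergenic, chr16:87373048-87373248: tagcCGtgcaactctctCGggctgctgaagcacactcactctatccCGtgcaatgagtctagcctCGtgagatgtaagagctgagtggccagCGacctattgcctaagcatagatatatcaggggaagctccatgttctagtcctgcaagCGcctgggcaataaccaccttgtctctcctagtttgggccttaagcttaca
chr17 intergenic, chr17:4626275-4626475: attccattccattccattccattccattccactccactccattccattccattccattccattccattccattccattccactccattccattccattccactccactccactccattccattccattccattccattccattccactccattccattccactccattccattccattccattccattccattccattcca
Muc19 exon, chr15:91909498-91909698: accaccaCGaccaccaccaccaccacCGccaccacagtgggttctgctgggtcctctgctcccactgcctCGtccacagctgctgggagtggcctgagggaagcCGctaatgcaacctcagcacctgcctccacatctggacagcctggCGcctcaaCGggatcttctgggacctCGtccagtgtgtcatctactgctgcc
Tmem61 exon, chr4:106502931-106503131: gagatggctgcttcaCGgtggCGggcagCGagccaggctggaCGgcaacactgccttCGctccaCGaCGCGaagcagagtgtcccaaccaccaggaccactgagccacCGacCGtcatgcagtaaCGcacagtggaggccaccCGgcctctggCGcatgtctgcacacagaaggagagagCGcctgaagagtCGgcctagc
Bach2 exon, chr4:32501688-32501888: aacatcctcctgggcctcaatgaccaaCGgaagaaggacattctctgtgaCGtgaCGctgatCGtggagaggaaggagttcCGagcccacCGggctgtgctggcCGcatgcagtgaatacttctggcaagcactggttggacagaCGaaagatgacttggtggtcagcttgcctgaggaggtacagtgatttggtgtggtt
Rora exon, chr9:69376800-69377000: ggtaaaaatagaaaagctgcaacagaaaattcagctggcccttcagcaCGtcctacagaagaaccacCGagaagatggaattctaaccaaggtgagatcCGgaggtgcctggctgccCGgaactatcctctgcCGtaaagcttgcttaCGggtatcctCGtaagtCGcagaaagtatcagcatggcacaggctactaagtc
Mroh2a exon, chr1:88241376-88241576: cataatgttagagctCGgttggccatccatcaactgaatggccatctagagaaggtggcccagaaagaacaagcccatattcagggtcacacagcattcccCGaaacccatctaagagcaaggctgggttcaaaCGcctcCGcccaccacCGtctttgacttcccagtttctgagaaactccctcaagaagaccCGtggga
Dnah8 exon, chr17:30744544-30744744: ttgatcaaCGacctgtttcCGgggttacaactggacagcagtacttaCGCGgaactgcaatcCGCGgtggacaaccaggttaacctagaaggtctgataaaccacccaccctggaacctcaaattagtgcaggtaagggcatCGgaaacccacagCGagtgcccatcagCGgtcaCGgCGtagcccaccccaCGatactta
The first sequence had 20 CpG and the Tmem61 sequence had 15. The chr4 sequence is a tandem repeat with 7 CpG, and the chr17 sequence is made of repeats of the 5 letters attcc and close variants, with 0 CpG.

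The shared peaks coincided closely in the 2 maternal lists. The median number of shared bases was 347, equal to the median peak length, 12096 peaks (86.0%) lay wholly inside the matching peak, and the centres differed by a median of 18 bases. Scores were low for most of them. The score, a unitless fit of the read coverage to a peak shape made by the authors' peak caller, had a median of 2.03 in the double HDM list and of 1.53 in the maternal only list. In the first list 4237 of them (30.1%) had a p of 0.01 or less, against 23.9% of all its peaks. In the second 939 of them (6.68%) did, against 14.1% of all its peaks. In both lists at once 722 had a p of 0.01 or less and 207 a p of 0.001 or less.

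Peaks that scored high in one maternal list tended to score high in the other. Spearman's rho across the 14057 shared peaks was 0.40, as a description with no p, since the peaks share libraries, sequence content and the limit of the lists at a p of 0.1. It was 0.26 across the 5876 single-copy peaks, in which no 51-base window has another exact copy in the genome. Across the 5286 multi-copy peaks, in which at least 50% of the windows have one, it was 0.47. Sequence copies moved with the score. Of the 207 peaks with a p of 0.001 or less in both lists 170 (82.1%) were multi-copy and 9 were single-copy, and the part of multi-mapped reads in those scores was not tested.

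**Figure D1:**
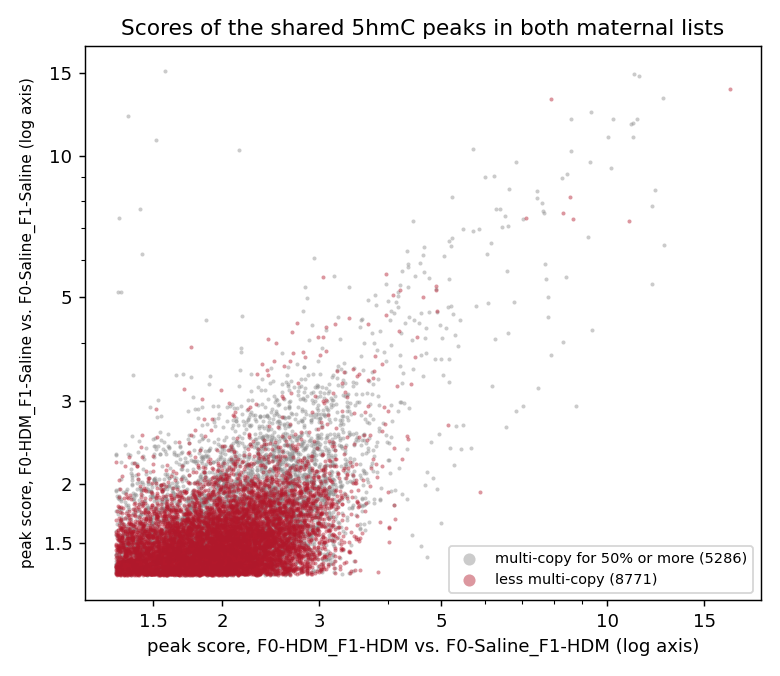
Score of each of the 14057 shared 5hmC peaks in the double HDM list (x axis) and in the maternal only list (y axis), both unitless on log axes, with the 5286 multi-copy peaks in grey and the other 8771 in red. Most points lie near the lower limit of both lists, with medians of 2.03 and 1.53, and the upper right of the plot is mostly grey.

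At the edge of the rule, the peak with the fewest bases in common, 18, lay in an intron of the cadherin gene Cdh18 at chr15:22699082-22699426, with scores of 1.70 in the double HDM contrast and 1.48 in the maternal only contrast. Just outside was the peak at chr8:47477202-47477486 (score 4.53), whose nearest maternal only peak was 19 bases away. A shared peak at chr2:139096240-139096548 (scores 1.73 and 1.47) touched an adult HDM peak without a common base. The peak at chr17:56576040-56576324 in Safb2, a nuclear matrix protein gene, had scores of 2.37 and 1.49 and was left out for 1 base in common. In all, 1722 shared peaks had an adult HDM peak within 1 kb. Peaks of the adult only list, used to exclude, had a median length of 699 bases, and those of the maternal only list, used to include, 445.

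By position and sequence the shared peaks stood between the 21716 peaks found in all 3 hMeDIP-seq lists and the 41998 found in the double HDM list only. They lay in a gene in 52.4% of cases, against 46.9% of the peaks in all 3 lists and 65.9% of those in no other list. An exon was overlapped by 4000 of them (28.5%, Clopper-Pearson 95% interval 27.7 to 29.2%), against 32.9% of all peaks of the list. A transcription start lay within 2 kb of 2434 (17.3%, 16.7 to 18.0%), against 19.0% of all peaks. Multi-copy sequence made up 37.6% of the shared peaks, 58.7% of the peaks in all 3 lists and 12.3% of those in no other list. Sequence with over 50% GC and a ratio of observed to expected CpG over 0.6, as in a CpG island, was found in 20.9% of the shared peaks, 50.1% of the peaks in all 3 lists and 6.57% of those in no other list. The remaining 11406 peaks met the adult only list but not the maternal only one. Of these, 71.7% lay in a gene, 49.3% overlapped an exon and 18.9% were multi-copy. All such intervals cover counting error only, and neighbouring peaks are not independent.

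**Figure D2:**
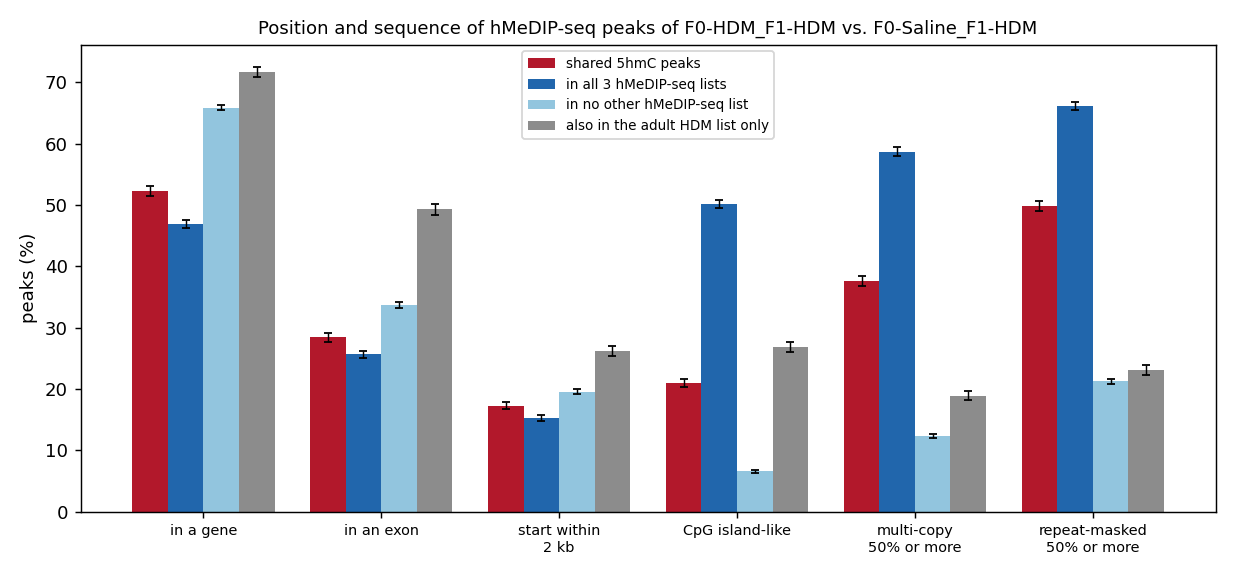
Share of peaks (%, y axis) with each feature among the shared 5hmC peaks and the other classes of the double HDM list, with error bars for the Clopper-Pearson 95% interval. The shared peaks (20.9% island-like, 37.6% multi-copy) lie between the peaks of all 3 hMeDIP-seq lists and those in no other list in all 6 features drawn.

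The lower exon share turned round once copies were taken into account. Among single-copy peaks 55.2% of the shared (53.9 to 56.4%) and 50.2% of the rest of the list (49.8 to 50.7%) overlapped an exon. Among multi-copy peaks the shares were 6.41% (5.77 to 7.11%) of the shared and 5.26% (4.96 to 5.58%) of the rest. Over all peaks, by contrast, 28.5% of the shared and 33.7% of the rest overlapped an exon. For transcription starts within 2 kb the single-copy shares, 24.9% of the shared (23.8 to 26.04%) and 24.6% of the rest (24.2 to 25.05%), were not separated. Single-copy shared peaks mostly overlapped an exon, and 25.6% of them lay in introns alone, against 30.01% of the single-copy rest. This split was chosen after the values were seen, and the single-copy rest was not divided by class.

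CpG density was close to that of the list. The shared peaks had a median of 3.79 CpG per 100 bp (order-statistic 95% interval 3.78 to 3.801) and 13 CpG per peak, against 3.70 per 100 bp over the whole list. The 5286 multi-copy shared peaks had a median of 4.31 per 100 bp, against 5.21 in the multi-copy rest. For single-copy peaks the medians were 3.58 in the shared and 3.32 in the rest. In the centre 300 bases, CGCG occurred in 31.7% of the shared peaks and in 29.7% of all peaks. GGGCGG or its reverse complement, the letters of an Sp1-type GC box, occurred in 14.4% and 16.5%, and the E-box CACGTG in 8.25% and 8.54%. CGCG and CACGTG read the same on both strands, and none of these motifs contains another. These are counts of letters and not of bound factors.

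A small group of the shared peaks held no CpG. There were 25 of these (0.178%, 0.115 to 0.262%) and 13 in the 75120 other peaks of the list (0.0173%, 0.00921 to 0.0296%). Of the 25, 19 also met a 5mC peak and 15 met one in all 3 MeDIP-seq lists, and 20 were at least 50% repeat-masked. The strongest was the intergenic attcc repeat on chromosome 17 shown above, at chr17:4626204-4626548, with 5hmC scores of 7.93 and 13.2 in the maternal contrasts. Its 5mC scores were 12.9 in double HDM, 22.0 in maternal only and 23.9 in adult only HDM, so a strong peak was listed in 5 of the 6 lists with no CpG in the reference sequence.

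The MeDIP-seq lists were not used to choose the peaks, and 2271 of the shared peaks (16.2%, 15.6 to 16.8%) met a 5mC peak of at least 1 list, against 14.7% of all peaks. In the double HDM contrast, the shortest MeDIP-seq list with 13338 peaks, it was 585 (4.16%, 3.84 to 4.50%), against 2.38% of all peaks. In the maternal only contrast it was 2064 (14.7%, 14.1 to 15.3%), against 13.5%. In the adult only contrast, which the 5hmC rule left out, it was still 1605 (11.4%, 10.9 to 12.0%), against 9.43%. The shared peaks again stood between the other classes. Of the peaks in all 3 hMeDIP-seq lists 21.3% met a 5mC peak of at least 1 list, and of those in no other list 11.0%. For the double HDM, maternal only and adult only contrasts the shares were 4.74%, 19.6% and 14.2% in all 3 lists. In no other list they were 0.886%, 10.1% and 6.62%. The 5mC and 5hmC libraries are of the same groups, and whether they came from the same DNA pools is not stated in the sources used here.

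The pattern that defined the shared peaks in 5hmC was rare in 5mC, in the shared peaks and in the rest alike. The lists differ in length, 13338 peaks in double HDM, 88438 in maternal only and 63967 in adult only, and the adult only contrast has a library in common with each of the others, so these combinations are descriptions. A 5mC peak in both maternal contrasts but not in the adult one was found at 4 of the 14057 shared peaks (0.0285%) and at 16 of the rest (0.0213%). Of the 585 with a 5mC peak in the double HDM contrast, 522 (89.2%) had one in all 3 MeDIP-seq lists. Peaks in the 2 long lists, maternal only and adult only, which share the F0-Saline_F1-Saline library, without double HDM were found at 897 shared peaks (6.38%, 5.98 to 6.80%) and 6.11% of the rest. Maternal only HDM alone was found at 641 (4.56%, 4.22 to 4.92%) and 5.28% of the rest.

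How the shared peaks compared with the rest in meeting 5mC depended on sequence copies. Over the whole double HDM 5hmC list the shares were close, 14.6% of single-copy and 15.2% of multi-copy peaks. Among single-copy peaks 17.9% of the shared (16.9 to 18.9%) and 14.1% of the rest (13.8 to 14.5%) met a 5mC peak. Among multi-copy peaks it was 14.9% of the shared (13.9 to 15.8%) and 15.3% of the rest (14.8 to 15.8%), with intervals that overlap. Of the 43898 single-copy peaks of the rest, 30228 were in no other hMeDIP-seq list, the class with the lowest 5mC share over all its peaks. The 5mC shares of the other classes were not split by copies. By list the multi-copy shares went both ways, with 11.6% of the shared (10.8 to 12.5%) and 10.05% of the rest (9.64 to 10.47%) in the adult only contrast, and 12.4% (11.5 to 13.3%) and 13.9% (13.4 to 14.4%) in the maternal only contrast. The 5mC peaks of double HDM met 6.38% of the multi-copy shared peaks (5.73 to 7.07%, against 4.19% of the multi-copy rest) and 1.58% of the single-copy ones (1.279 to 1.94%). By 5hmC score the share was higher at the top only. Among the 3514 shared peaks whose lower score was from 1.72 to 13.8, 22.3% met a 5mC peak, 17.3% an exon and 62.0% were multi-copy, whereas among the 3515 with a lower score of up to 1.37 it was 14.1%, 33.9% and 23.4%.

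**Figure D3:**
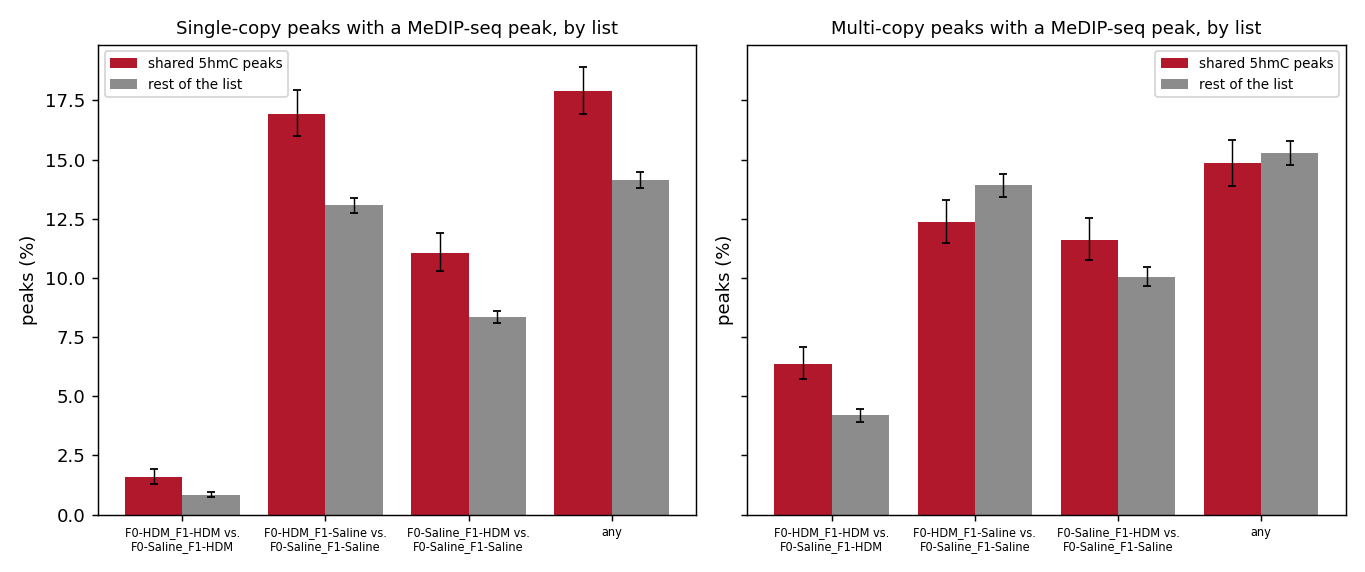
Share of hMeDIP-seq peaks (%, y axis) that met a MeDIP-seq peak of each contrast (x axis), for single-copy peaks (left) and multi-copy peaks (right), with the shared peaks in red, the rest of the double HDM list in grey, and Clopper-Pearson 95% intervals as error bars. In single-copy sequence the shared peaks lie above the rest in every list (17.9% against 14.1% for any list). In multi-copy sequence they lie above in the double HDM and adult only lists (6.38% against 4.19% and 11.6% against 10.05%), below in the maternal only list (12.4% against 13.9%) and level for any list (14.9% against 15.3%).

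The strongest shared peaks were mostly outside genes. The first, at chr9:123925351-123925738, had scores of 16.7 in double HDM and 13.8 in maternal only HDM, 30 CpG and a GC content of 62.6%, and lay 43171 bases from the nearest start. Its sequence was mostly single-copy, and 5mC scores there were 6.22 in double HDM, 10.1 in maternal only and 10.3 in adult only HDM. Single-copy shared peaks followed on the same stretch at chr9:123929184-123929525 (scores 3.67 and 4.38) and chr9:123935486-123935832 (8.68 and 7.33). The third in rank, at chr4:118548455-118548709, had scores of 11.4 and 14.7 and lay 4542 bases from the start of Tmem125, in a tandem repeat with a median of 4 copies per window. It was also one of the 8 with the highest 5mC scores, 11.8 in double HDM, 20.7 in maternal only and 20.6 in adult only HDM.

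Of the other 8 in the first 10, 7 were repeat-masked and had from 458 to 1682 copies of a median window. Those were a pair at chr14:110356369-110356681 and chr14:110357169-110357507, single peaks at chr16:76058842-76059183 and chr16:87372989-87373296, one in an intron of the predicted gene Gm14697 on the X chromosome (10.3 and 12.0), and a pair in an intron of Myo5b. Myo5b, a myosin motor of recycling endosomes, held 8 shared peaks of 21 peaks of the list, with scores between 2.10 and 12.6. The tenth, at chr6:47750171-47750534 (10.04 and 10.95), had a median of 17 copies. The 5mC scores of the chromosome 14 pair were 2.81 and 3.48 in the double HDM, 2.55 and 2.97 in the maternal only and 2.91 and 4.41 in the adult only contrast.

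The 8 shared peaks with the highest 5mC scores ranged widely in 5hmC. Those near Tmem125 and at the attcc repeat on chromosome 17 were strong in both marks. The highest 5mC scores at any shared peak, at chr7:145341031-145341392, were 34.6 in double HDM, 41.8 in maternal only and 41.9 in adult only HDM, with 5hmC scores of 1.51 and 1.58 and 0 CpG. At chr16:98107360-98107716 the 5mC scores were 24.5, 33.5 and 33.7, and the 5hmC scores 1.54 and 1.55. Peaks at chr14:124801729-124802095 and chr12:93576939-93577287 had 5hmC scores of at most 1.46. On chromosome 17 peaks at chr17:13305962-13306304 (2.25 and 2.91) and in 2700054A10Rik at chr17:13552770-13553147 (3.28 and 4.07) had no CpG. In all 8 peaks with the highest 5mC scores, the double HDM contrast had the lowest of the 3 scores, although scores of separate lists are not on a common scale.

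Near transcription starts, the strongest shared peaks were again at repeated sequence. Of the first 8 within 1 kb of a start, 4 were at the predicted genes Gm11168, Gm10719, Gm10721 and Gm10720 at the end of chromosome 9, with 5hmC scores from 6.601 to 12.1 in double HDM and from 4.54 to 7.80 in maternal only HDM. Muc19, a gel-forming mucin gene that is prominent in salivary glands, had a peak in an exon 687 bases from a start at chr15:91909419-91909764, with scores of 7.80 and 5.01. The 5mC scores there were 4.54 in double HDM, 10.6 in maternal only and 7.92 in adult only HDM, and a median window had 6 copies. Muc19 held 3 shared peaks of 8. An exon of Mid1, a microtubule-associated ubiquitin ligase gene, had scores of 7.75 and 5.46 beside the start of Gm15247. The last were AW822073 (4.60 and 4.63) and Gm26461 inside the zinc finger gene Zfp949 (4.21 and 5.17).

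Single-copy peaks near starts were weaker, and were listed after their values had been seen. Gm8357 had scores of 3.797 in double HDM and 3.75 in maternal only HDM, and Sfi1, a centrosome gene, 3.01 and 3.77, each with a 5mC peak in all 3 contrasts. Tmem61, a transmembrane protein gene, had a peak across exon sequence 74 bases from its start, with scores of 3.18 and 2.46 and 18 CpG. Phldb1, which encodes a protein of the cell cortex, had 2.38 and 2.43, and Arrdc5, an arrestin-domain gene, 2.27 and 2.48. Slc12a3, the thiazide-sensitive sodium chloride cotransporter, had 2.77 and 2.17. Bach2, a repressor that restrains effector T cells and type 2 inflammation of the lung, had 2.71 and 2.15, in an exon 283 bases from an annotated start, with no 5mC peak.

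Shared peaks were found in 5567 genes, and 4145 of these held 1. Of 21924 protein-coding genes 4214 (19.2%) held at least 1 shared peak, which is 33.8% of the 12456 with any peak of the list. The 5 genes with the most were long or repeated transcription units. Gm20388, a readthrough model of 4435 kb on chromosome 8, held 100 of 625 peaks (16%), close to the share in the whole list. AC174471.1, an antisense transcript across the Dnah8 region, held 35 of 98, and Dnah8 itself 29 of 66 (43.9%). Gm26848 held 21 of 46 and C130026I21Rik 18 of 47, with 20 and 16 of them in multi-copy sequence, and by the shorter RefSeq span C130026I21Rik held 6. Strand was not part of the lists, so peaks of Dnah8 and of its antisense partner are the same peaks.

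Dnah8 encodes an axonemal dynein heavy chain, a motor of cilia and sperm flagella. Its 29 shared peaks ran from 30637083 to 30865197 on chromosome 17, and 27 were single-copy and 18 overlapped an exon. Scores in the gene were between 1.47 and 4.10 in double HDM (median 2.36) and between 1.284 and 2.46 in maternal only HDM (median 1.60). The highest score in double HDM, 4.10, was at chr17:30735998-30736345 (2.39 in maternal only HDM), and the exon peak whose sequence is shown, at chr17:30744473-30744827, had 2.94 and 2.46. Glo1 next to it, which encodes glyoxalase 1 and clears methylglyoxal, held 3 shared peaks of 8.

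Over 500 kb around both genes (chr17:30450001-30950000) there were 35 shared peaks, against 4 in the 500 kb below and 1 in the 500 kb above. Of the 6 lists, 5 had more peaks there than in either flank by a wide margin, and the adult only 5hmC list exceeded the flank above only slightly. In 5hmC there were 100 peaks in double HDM, 53 in maternal only and 18 in adult only HDM, against 22, 8 and 6 in the flank below and 35, 6 and 14 in the flank above. In 5mC there were 19, 127 and 74 peaks, against 1, 20 and 11 below and 3, 31 and 21 above. The segment was chosen after the peaks had been seen, and 32 of its shared peaks were single-copy.

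A shorter block lay on chromosome 1 (chr1:88200001-88325000). It covered Mroh2a, a HEAT repeat gene, Hjurp, a chaperone of centromeric histone, and part of Trpm8, the cold and menthol channel. It also covered part of the Ugt1a cluster of glucuronidation genes, which extends into the flank below. The block held 14 shared peaks, 13 of them single-copy, of 30 peaks in double HDM, and there were 0 in the 125 kb on each side. Those flanks had few peaks that could be shared, 1 below and 6 above in the double HDM list. Mroh2a held 7 of 13, with scores from 1.65 to 3.68 in double HDM and from 1.43 to 3.33 in maternal only HDM. Hjurp held 2 of 6, and the stronger, in an exon at chr1:88270009-88270328, had 3.802 and 2.21. Trpm8 held 4 of 11 over its longest GENCODE model and 1 by its RefSeq span, at chr1:88307207-88307535 (2.61 and 2.30). In 5mC this block had 19 peaks in double HDM, 44 in maternal only and 37 in adult only HDM, against 0, 4 and 1 below and 1, 10 and 6 above.

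**Figure D4:**
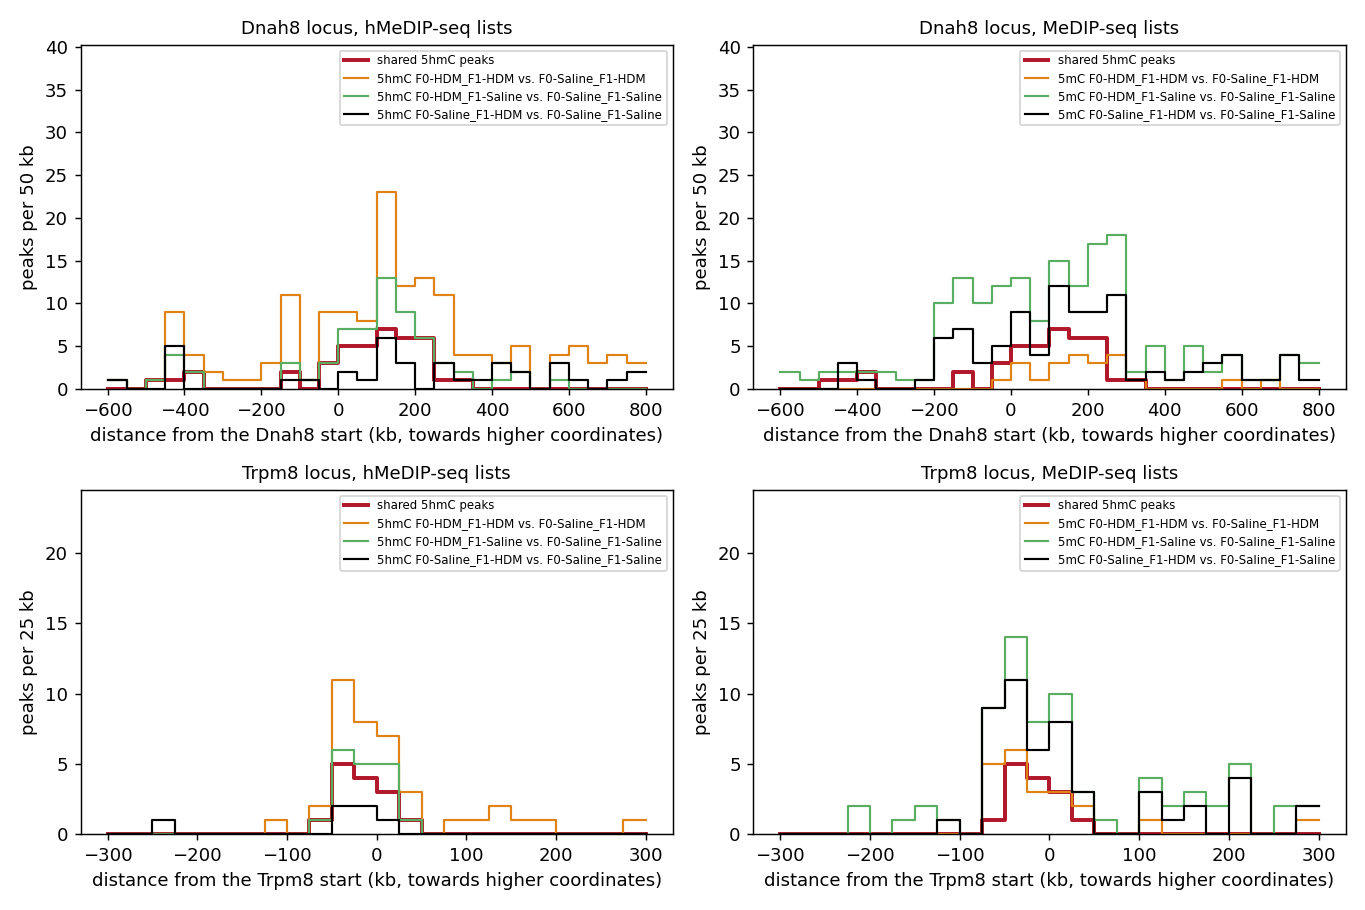
Number of peaks per window (y axis) against the distance in kb from the lowest coordinate of Dnah8 (top, 50-kb windows) and of the longest Trpm8 model (bottom, 25-kb windows), for the shared 5hmC peaks (thick red) with the 3 hMeDIP-seq lists (left) or the 3 MeDIP-seq lists (right). The shared peaks rise to 7 per window inside Dnah8 and to 5 per window just below Trpm8, and the double HDM, maternal only and 5mC lists are dense over the same stretch. The adult only 5hmC list, the shortest of the 3 hMeDIP-seq lists and the one used to exclude, is also highest, at 6, in that Dnah8 window. Around Trpm8 it reaches 2.

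Other dense windows were at copies. Of 12547 windows of 200 kb with a peak of the list 28 held 10 or more shared peaks, and 6 of those had a median multi-copy share of 0. The highest was the window of Gas8, a dynein regulatory gene, and Tubb3 on chromosome 8, with 31 shared peaks of 64 and a median multi-copy share of 86.8%. By runs with gaps up to 10 kb, 10830 shared peaks (77.0%) stood alone and 462 were in 59 runs of 5 or more. Wwox, an oxidoreductase gene over a fragile site, held 12 of 87 over 913 kb. Within the first 500 kb of assembled sequence of the chromosomes other than Y, 166 of 648 peaks (25.6%) were shared, and 71 of these (42.8%) met a 5mC peak. Only 41 of the 166 were single-copy, and the 5mC share of the other peaks there was not counted.

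In the gene lists that follow, counts of genes are to be read beside the 19.2% of all protein-coding genes, or 33.8% of those with a peak, and counts of peaks beside the 15.8% of the list. Of 22 genes of type 2 immunity 11 had a peak of the list and 2 a shared one, and 6 of their 35 peaks (17.1%) were shared, close to the list. Rora held 5 of 23, with scores from 1.91 to 2.44 in double HDM and from 1.29 to 1.73 in maternal only HDM. Its strongest, in an exon at chr9:69376724-69377070, had 2.44 and 1.73, and none of the 5 met a 5mC peak. Ccr8, a chemokine receptor of type 2 helper T cells, had a peak in an exon with scores of 1.39 and 1.30.

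Of 22 genes of lung epithelium 12 had a peak and 3 a shared one (4 of 33 peaks, 12.1%). Cdh1, the E-cadherin of epithelial junctions, held 2, the stronger by its lower value at 2.11 and 1.32. Epcam, an epithelial adhesion molecule, had 1.55 and 1.57 in an exon, and Trp63, a factor of airway basal cells, 1.70 and 1.43 in an intron.

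Of the 22 genes of smooth muscle and matrix 8 held a shared peak (15 of 89 peaks, 16.9%, close to the list). That is 53.3% of the 15 with any peak, against 33.8% of all protein-coding genes with one. The number of peaks per gene was not matched in this comparison. Col6a3, a chain of type VI collagen, held 4 of 14 and Fn1, fibronectin, 3 of 14, all in exons. Smtn, a smooth muscle actin-binding protein, held 3 of 7, of which 1 lay 2 bases from an annotated start (2.62 and 1.69) and outside its RefSeq span. Col4a2, a basement membrane collagen, had 2.34 and 1.998, and Myh11, the smooth muscle myosin heavy chain, 1.95 and 1.801. Mylk, Col5a1 and Tnc held 1 each.

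Of 20 genes of methylation and demethylation 15 had a peak and 7 of those (46.7%) a shared one (10 of 69 peaks, 14.5%). Tet2, which makes 5hmC, held 2 of 5, both in exons, the stronger with scores of 2.77 and 1.62. Dnmt3a, a de novo methyltransferase, held 2 of 9, and at the one with 1.56 and 1.54 there was a 5mC peak in maternal only and in adult only HDM. Uhrf1, which brings the maintenance methyltransferase to new DNA, had 1.81 and 1.56 within 386 bases of a start, and Mbd1, a methyl-CpG binding protein, 2.26 and 1.86. Tet3, Dnmt1 and Idh2 held 1 each.

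Of 25 genes of lung development 19 had a peak and 7 of those (36.8%) a shared one by GENCODE (21 of 224 peaks, 9.38%). This count includes Fgfr2, the receptor of the Fgf10 signal in airway branching, whose 12 all lay in a model of 2961 kb that runs over other genes, and 0 lay within the RefSeq span of 104 kb. Wnt2b, a Wnt ligand, had 2.79 and 1.63 in an exon, Gli3, a hedgehog effector, 1.92 and 1.65, and Foxp1, a lung forkhead repressor, 1.90 and 1.87 in an intron. Rarb, Foxp2 and Gli2 held between 1 and 2 each.

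Of 20 genes of TGF-beta and Smad signalling 15 had a peak and 4 of those (26.7%) a shared one (7 of 79 peaks, 8.86%). Of the 4 genes with a shared peak, 3 encode latent TGF-beta binding proteins, which store the ligand in matrix. Ltbp4 held 3 of 9, all in exons and up to 2.39 and 1.99, Ltbp3 had 2.14 and 2.06, and Ltbp2 had 1.86 and 1.68 at a peak 69 bases from a start. Acvr1, a type I receptor, had 1.63 and 1.44. Of 24 annotated candidate genes that the study chose from these libraries 18 had a peak and 5 a shared one within the gene span (7 of 81 peaks, 8.64%). Besides Muc19 the 5 were Col23a1 (2.19 and 2.73), Luzp2 (1.51 and 1.39), Ranbp3l (1.99 and 1.39) and Acox2. Tmem125 is also a candidate of the study. The strong shared peak near it (11.4 and 14.7) lay 4542 bases from its start, outside the gene, and is not in this count. The study's choice of candidates is not independent evidence.

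Along the chromosomes the shared peaks made up from 13.8% of the list on chromosome 11 to 21.3% on X (19.8 to 22.8%), with 20.02% on Y (17.4 to 22.8%). The 2 highest were also the chromosomes where the shared peaks were most often multi-copy, 83.5% on X and 89.1% on Y, against 24% on chromosome 19 and 25.2% on chromosome 11. Most peaks of the whole list were multi-copy there too, 2344 of 2907 on X and 818 of 874 on Y. Among the autosomes chromosome 14 was highest at 17.6%, with 45.8% multi-copy.

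**Figure D5:**
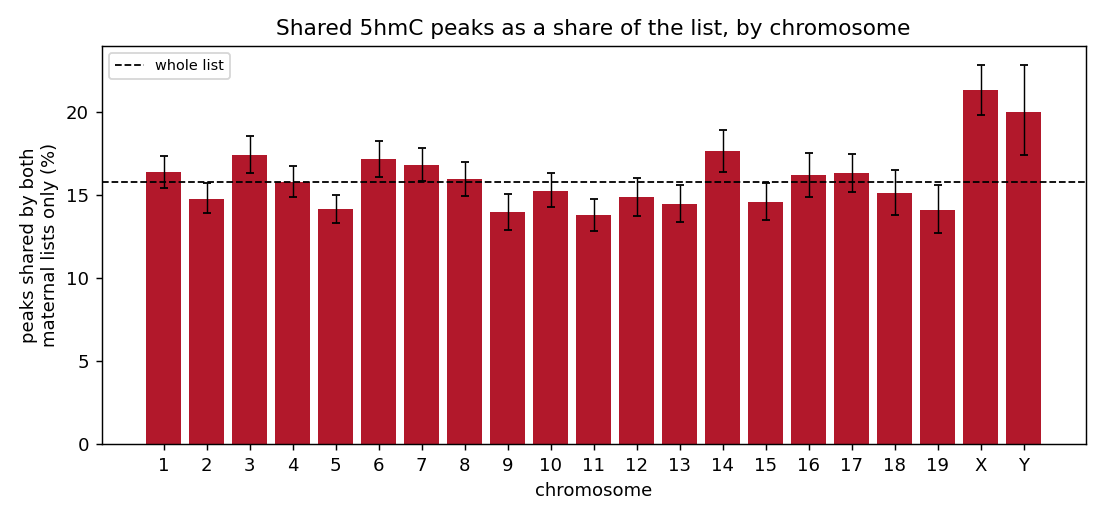
Shared 5hmC peaks as a percentage of all double HDM peaks (y axis) on each chromosome (x axis), with Clopper-Pearson 95% intervals as error bars and the whole list (15.8%) as a dashed line. X (21.3%) and Y (20.02%) stand above the line and chromosome 11 (13.8%) is the lowest.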

How the data were processed

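The authors captured 5mC and 5hmC from fragmented lung DNA and sequenced 8 libraries. Read processing used Bowtie 0.12.9, CASAVA 1.8.0 and FastQC according to the submitters' processing notes, and the study's methods name CLC Genomics Workbench for peaks on GRCm38 (mm10). The deposited score of each peak is the authors' unitless measure of coverage shape. The deposited p-value is the upper normal tail of that score and reaches 0.1, whereas the study's methods give a false discovery rate of 0.001 for peaks. The lists were used whole, and how that rate relates to them is not given in the sources used here. The 6 lists hold 329018 peaks, with no reads per peak.

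Lists were compared by position with at least 1 shared base. A peak said to be in an exon shares at least 1 base with it. Genes, exons and 132666 transcription starts came from GENCODE vM21, some gene spans from RefSeq, and sequence from GRCm38. Copies were counted for every 51-base window on both strands. Shares have Clopper-Pearson 95% intervals, medians order-statistic intervals. The members and lists were chosen with earlier results of these data known. Named genes are those at the 10 members with the highest lower score, the 5 with the most members, those within 1 kb of the 8 strongest members at starts, up to 4 of each gene list, those at the 8 highest MeDIP-seq scores, and those at the edges of the rule. Others were named after their values were seen. Overlaps equalled exhaustive search in 12000 of 12000 simulated cases. Work was done in Python 3.11.15 (scipy 1.17.1, pandas 2.3.3, numpy 2.4.6) with matplotlib 3.10.9 and numba 0.67.0.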

Additional observations from a re-analysis of the deposited data

How the results depend on the processing

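The number of shared peaks, 14057, stayed within 1.5 times when 50% of the shorter peak had to be shared (14041), no adult HDM peak within 1 kb (12335) and the rule applied from the maternal only list (13957). It fell to 4397, 722 and 207 with a p of 0.05, 0.01 and 0.001 or less in both lists. At a p of 0.01 or less, 44.3% met a 5mC peak of any list, 10.4% lay within 2 kb of a start, 7.34% overlapped an exon, the median CpG density was 4.17 per 100 bp, and 193 genes held a peak. With multi-copy peaks left out these values were 16.9%, 22.0%, 41.7% and 3.64, and with single-copy peaks only, an alternative added after seeing the data, 17.9%, 24.9%, 55.2% and 3.58. Without peaks that had an adult HDM peak within 1 kb, 15.5% met a 5mC peak and the median CpG density was 3.77. Requiring 50% of the shorter MeDIP-seq peak gave 14.8%. Windows of 1 and 5 kb gave 11.3% and 29.7% near a start, and genes with a start within 2 kb of a peak centre numbered 2506, against 5567 by span. The cause of these shifts was not tested beyond the settings themselves. No paired analysis was possible because each group has 1 library per assay, and no replicate could be left out. Single libraries, unknown depth and lists that reach a p of 0.1 limit every share given here.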
